A study of Mus musculus with 9 samples.

Results

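The enzymes that turn glucose into pyruvate and lactate were followed through closure and reopening of the ureter in the mouse kidney. They were 10 genes, Hk1, Hk2, Pfkp, Pfkl, Pfkfb3, Aldoa, Pgk1, Pkm, Ldha and Ldhb, out of 17741 genes that could be tested on the array. They were chosen by name as enzymes of glycolysis and as pairs of isozymes, and every array probe whose RefSeq accession belongs to one of them was used. These were 21 probes, of which 19 stood clear of background on 3 or more arrays and were kept, and the brightest probe stood for each gene. Each of the 10 genes had at least 1 such probe, and each of the 10 leading probes was well above background on every array.

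Whole left kidneys came from 9 male mice aged 10 weeks of the genotype ISAM (Epo–/–::3.3K-Epo3'-Tg458) on a mixed strain background. These mice lack their own erythropoietin gene and carry an erythropoietin transgene that does not make up for it in the adult, so that they are anaemic, and the control mice share this state. In the group called Clip (3 mice) a vascular clip had closed the left ureter for 2 days. In the group called ClipR-14 (3 mice) the clip had then been taken off and 12 days had passed. The control arm joined 2 sham-treated mice and 1 untreated mouse, for which the labels give no day of collection. Levels are log2 of a probe's processed signal over the 75th percentile of its array, so that 0 is the 75th percentile, and a change is a difference of such levels between arms of 3 mice.

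Glycolysis begins when a hexokinase traps glucose in the cell as a phosphate ester, passes its main point of control at phosphofructokinase, and ends at pyruvate kinase. Lactate dehydrogenase then moves pyruvate to lactate or back. Most steps are shared out among isozymes made from separate genes, which differ in their regulation and in the tissues that use them. In the kidney, proximal tubules make glucose and burn fatty acids and lactate, while the distal segments and the medulla depend more on glycolysis. Many glycolytic genes are known targets of the hypoxia-inducible factors (HIF), which bind the letters ACGTG or GCGTG in DNA.

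The promoters of the member with the largest rise under the clip (Hk2), the member with the largest fall (Pgk1) and the member with the most such letters (Ldha) are shown, from RefSeq on build GRCm38.p6, 250 bases before to 50 bases after the gene's start. Capitals mark ACGTG or GCGTG on either strand, which read CACGT or CACGC where the match lies on the other strand. The Hk2 window is chr6:82774405-82774704 on the minus strand, with 2 copies of ACGTG. The Pgk1 window is chrX:106186850-106187149 on the plus strand, also with 2 copies of ACGTG. The Ldha window is chr7:46845554-46845853 on the plus strand, with 5 copies of ACGTG and 2 of GCGTG, where each of its 2 CACGTG stretches is counted on both strands.
Hk2 promoter: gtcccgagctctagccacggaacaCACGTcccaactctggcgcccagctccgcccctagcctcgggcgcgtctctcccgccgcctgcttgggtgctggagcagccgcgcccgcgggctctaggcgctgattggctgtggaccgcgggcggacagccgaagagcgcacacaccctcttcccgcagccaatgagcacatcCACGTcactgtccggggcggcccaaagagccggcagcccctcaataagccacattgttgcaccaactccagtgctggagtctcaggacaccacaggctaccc
Pgk1 promoter: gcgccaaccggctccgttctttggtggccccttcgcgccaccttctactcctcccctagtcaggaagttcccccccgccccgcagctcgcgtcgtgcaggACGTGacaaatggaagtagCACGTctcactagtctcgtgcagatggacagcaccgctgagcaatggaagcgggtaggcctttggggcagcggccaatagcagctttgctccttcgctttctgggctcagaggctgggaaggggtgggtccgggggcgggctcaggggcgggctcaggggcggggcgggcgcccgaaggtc
Ldha promoter: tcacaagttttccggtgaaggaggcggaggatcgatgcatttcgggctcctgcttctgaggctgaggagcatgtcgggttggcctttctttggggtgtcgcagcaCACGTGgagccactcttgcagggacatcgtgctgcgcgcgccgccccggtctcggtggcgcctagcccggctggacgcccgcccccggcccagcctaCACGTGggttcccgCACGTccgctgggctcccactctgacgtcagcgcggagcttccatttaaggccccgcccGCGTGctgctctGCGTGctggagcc

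The table held 16 promoters for the 10 genes. Of these, 13 held at least 1 of the 2 motifs, and each of the 10 genes had at least 1 promoter that did. Over all 32851 promoters of this length in the table, 43.8% held at least 1 match, 20.6% at least 2 and 3.86% at least 4. These shares were not matched for GC content, which was 51.3% to 69.7% in the member windows, or for promoters per gene. In addition, 2 of the Aldoa windows overlap and share 1 match. Whether the members hold more matches than like promoters was therefore not tested. The Hk1 promoter with the most matches held 5, the Pfkp promoter 4 and a Pfkfb3 promoter 4. The Pfkl, Ldhb and Aldoa promoters held at most 1 match each, and the Pkm promoters 0 and 2. Hk2 and Pgk1 held 2 matches each. Whether the matches go with the direction of a change was not tested.

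Every array carried signal of comparable brightness, with a 75th percentile between 320 and 439 and 52.0% to 57.5% of probes well above background. The tissue label was borne out by segment markers: the summed level of 11 proximal tubule markers, in units of the array's 75th percentile, was 921 to 1198 in controls. That sum was 312 to 422 in Clip kidneys and 834 to 1082 in ClipR-14 kidneys, and 11 of the 11 markers fell under the clip. Markers of the segments further down were lower as well: the sums went from 305 to 350 in controls to 148 to 183 in Clip for the thick limb (5 genes), from 50.4 to 68.7 to 6.85 to 7.59 for the distal convoluted and connecting tubule (5 genes), from 58.2 to 78.6 to 16.7 to 20.5 for principal cells (6 genes) and from 32.3 to 43.5 to 8.80 to 11.6 for intercalated cells (5 genes). Proliferation markers rose (7 of 7, summed level 1.75 to 2.52 in controls and 25.7 to 26.2 in Clip), as did fibroblast markers (9 of 9, 56.6 to 72.9 and 244 to 320) and macrophage markers (8 of 9 measured, 7.29 to 8.91 and 26.8 to 29.4). Of these markers, Top2a (proliferation) and Itgam (macrophage) were well above background on the Clip arrays alone, and entered the test only through them. These shifts in cell markers stand beside every value of the Clip kidneys given here, and their part in the glycolytic changes was not tested. In RNA of whole kidneys, fewer cells of a type and less RNA per cell cannot be told apart.

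Under the clip Hk2 rose, and no other member of the 10 passed as higher. Against control, 1 member passed the test as higher (Hk2), 4 as lower (Hk1, Pfkfb3, Aldoa and Pgk1) and 5 did not pass (Pfkp, Pfkl, Pkm, Ldha and Ldhb). The test was limma with Benjamini-Hochberg adjustment over all genes at 0.05. Over all genes tested, 48.9% passed it, 21.4% as higher and 27.5% as lower, so that 5 of 10 is a share near that of all genes. The median change of the members was -0.23, against -0.09 for all genes. The arms did not overlap for 7 of the 10 members, against 58.6% of all genes.

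**Figure D1:**
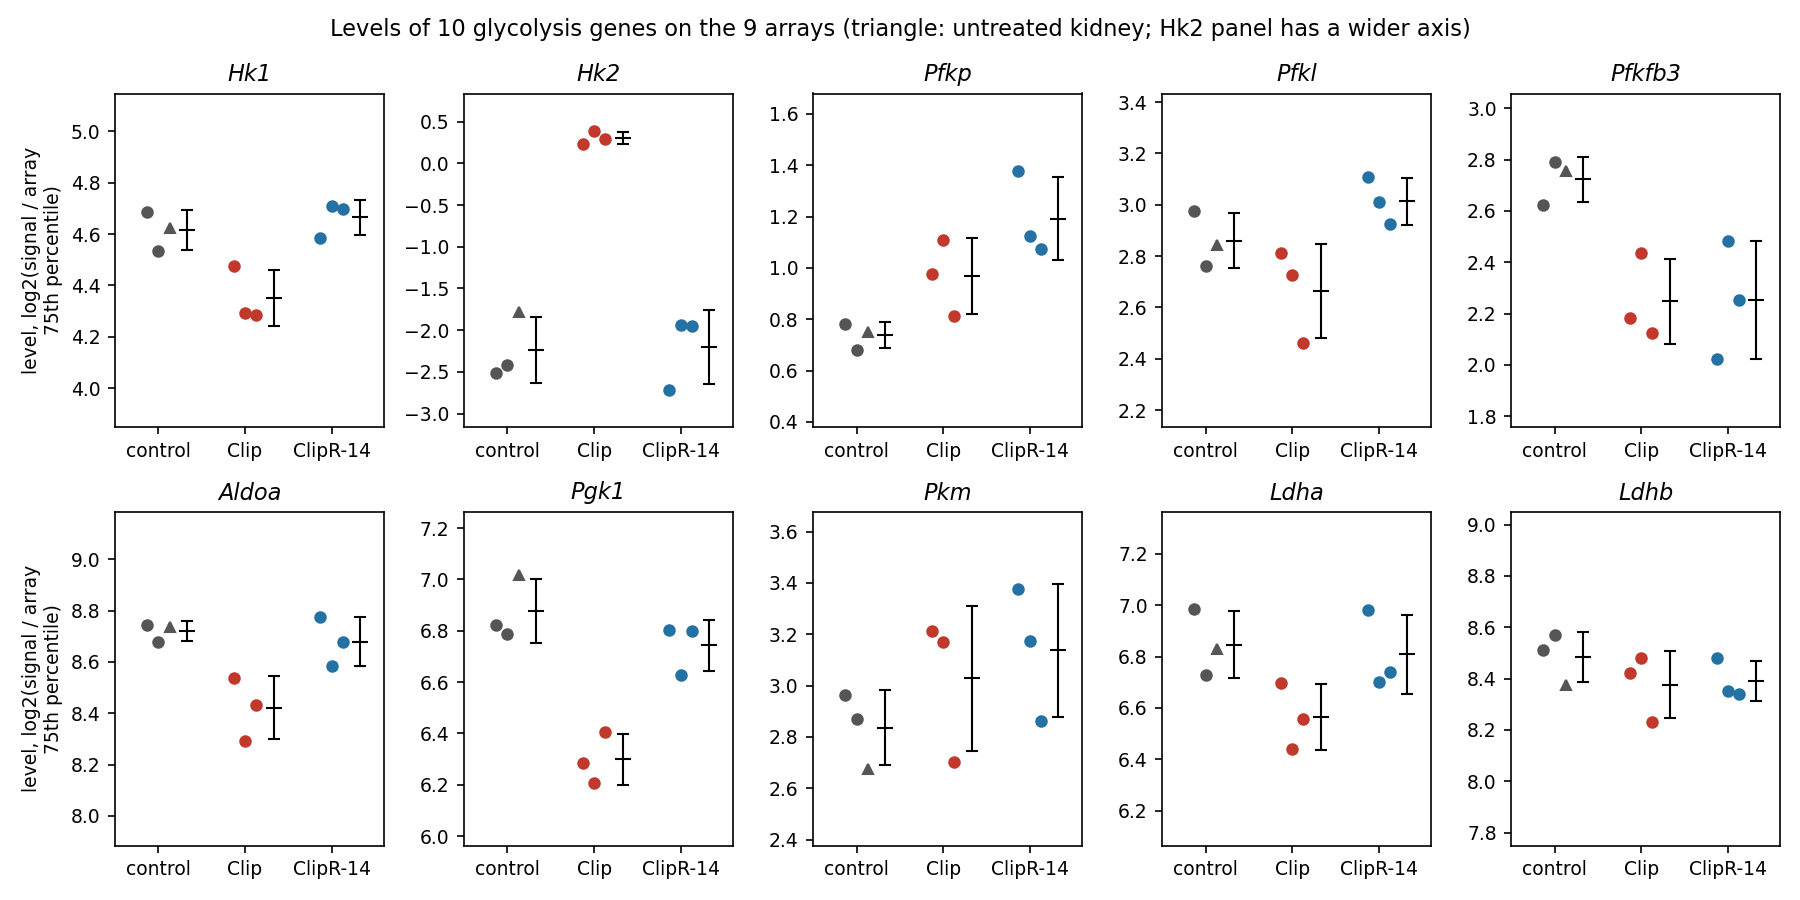
Levels of the 10 genes on each of the 9 arrays (vertical axis: log2 of signal over the array's 75th percentile; dots: single kidneys; triangle: the untreated kidney; bars: mean and SD of 3 arrays). The Hk2 panel has a wider axis than the others: its 3 Clip kidneys sit between 0.24 and 0.39, and its other 6 kidneys between -2.71 and -1.79.

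Hexokinase 2 is the inducible hexokinase of muscle, fat and dividing cells. Its level was -2.51 and -2.42 in the sham kidneys and -1.79 in the untreated kidney. It was 0.24, 0.39 and 0.29 in the Clip kidneys and -2.71, -1.94 and -1.94 in the ClipR-14 kidneys. All 3 obstructed kidneys therefore stood far above all the others, and the released kidneys overlapped the controls. The rise under the clip was 2.54 ± 0.25 on the log2 scale (SE; 5.83-fold; limma adjusted p = 7.44e-05), and within the 3 slides it was 2.75, 2.80 and 2.08. With normexp background correction the same rise was 1.72 (adjusted p = 2.2e-05). After release the level stood 0.04 from control, with a 95% interval of -0.53 to 0.61.

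Hexokinase 1, the form found in most tissues, moved the other way and by little. Its level was 4.53 to 4.69 in controls, 4.29 to 4.48 in Clip kidneys and 4.59 to 4.71 in ClipR-14 kidneys, so the Clip kidneys were lowest and the other arms overlapped. It fell by 0.26 ± 0.09 (SE; limma adjusted p = 0.0444), with -0.21, -0.24 and -0.34 on the 3 slides. This call was weak: of the 9 fits that left out 1 array, 1 kept it, the one without Clip replicate 1, and the adjusted p over the 9 fits ran from 0.0353 to 0.128. Under quantile normalization the Hk1 change was 0.06, and with normexp it was -0.46 (adjusted p = 0.0536). All 4 probes of Hk1 that passed the filter were lower under the clip, by 0.26 to 0.51, and 2 further probes were not well above background on enough arrays to be tested.

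Further hexokinases were read beside this pair. Hk3, a form of white blood cells, was well above background on the 3 Clip arrays and on none of the other 6. Its level in Clip was at least 3.40-fold that in control (limma adjusted p = 0.000179), but it entered the test through the Clip arrays alone. Hkdc1, a hexokinase-like member of the family, rose by 0.90 ± 0.14 (SE; adjusted p = 0.00101).

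Phosphofructokinase is built from muscle, liver and platelet subunits (Pfkm, Pfkl and Pfkp). The level of Pfkp was 0.78 and 0.68 in the sham kidneys and 0.75 in the untreated kidney. It was 0.98, 1.11 and 0.81 in Clip kidneys and 1.38, 1.12 and 1.07 in ClipR-14 kidneys. Each obstructed and each released kidney was above every control. The difference did not pass the test in either comparison, at 0.23 ± 0.12 for Clip (SE; limma adjusted p = 0.134) and 0.45 ± 0.12 for ClipR-14 (SE; adjusted p = 0.0795). A second, dimmer Pfkp probe gave the opposite sign under the clip, a fall of 0.67 ± 0.15 (SE; adjusted p = 0.00727), and 0.05 ± 0.15 (SE) after release, so the direction for Pfkp depends on the probe.

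Pfkl was lower in the Clip kidneys (2.46 to 2.81) than in most controls (2.76 to 2.97), but the arms overlapped and the change of -0.19 ± 0.12 (SE) did not pass (limma adjusted p = 0.202). From Clip to ClipR-14 it rose by 0.35 ± 0.12 (SE; adjusted p = 0.0429). Of the 9 fits that left out 1 array, 2 kept this call, those without sham replicate 1 and without Clip replicate 1. Pfkm, the muscle subunit, had the clear change among the 3 subunits: it fell by 1.12 ± 0.10 under the clip (SE; adjusted p = 3.87e-05) and stood 0.06 below control after release (-0.06 ± 0.10, SE; adjusted p = 0.757).

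Pfkfb3 makes the sugar bisphosphate that activates phosphofructokinase. Its level was 2.62, 2.79 and 2.76 in the 3 controls, 2.18, 2.44 and 2.12 in Clip kidneys and 2.02, 2.48 and 2.25 in ClipR-14 kidneys. Both the obstructed and the released kidneys lay below every control. It fell by 0.48 ± 0.14 under the clip (SE; limma adjusted p = 0.0202), and 6 of the 9 fits without 1 array kept this call. Those without sham replicate 2, Clip replicate 1 and Clip replicate 3 did not, with adjusted p up to 0.0647. Quantile normalization also ended the call (-0.31, adjusted p = 0.122). The other 2 probes gave -0.53 (adjusted p = 0.0223) and -0.28 (adjusted p = 0.294).

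After release the Pfkfb3 difference from control was almost as large, -0.47 ± 0.14 (SE), and did not pass (limma adjusted p = 0.108). It was -0.60, -0.31 and -0.51 on the 3 slides, and it passed with the slide as a block (adjusted p = 0.0440). Of its 3 probes, 2 showed this difference (-0.47 and -0.47) and the other was at 0.03. The other bifunctional enzymes of this family went their own ways under the clip: Pfkfb1 rose by 1.18 ± 0.11 (SE; adjusted p = 6.16e-05), while Pfkfb2 (-0.17) and Pfkfb4 (-0.28) did not pass.

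Aldolase A splits the sugar bisphosphate into trioses in muscle and most other tissues. Its level was 8.68 to 8.75 in controls, 8.29 to 8.54 in Clip kidneys and 8.58 to 8.77 in ClipR-14 kidneys, so the Clip kidneys were lowest. It fell by 0.30 ± 0.10 (SE; limma adjusted p = 0.0314), and its 2 probes gave -0.30 and -0.31. Of the 9 fits without 1 array, 4 kept the call: those without Clip replicate 1 and without each of the ClipR-14 replicates. With normexp the change was -0.45 and did not pass (adjusted p = 0.104). Under quantile normalization the Aldoa fall kept its call, the only fall among the members that did. The brain form, Aldoc, fell by 2.15 ± 0.18 (SE; adjusted p = 3.19e-05).

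Phosphoglycerate kinase 1, the first step of glycolysis that yields ATP, gave the largest fall of the 10 members. Its level was 6.82 and 6.79 in the sham kidneys and 7.02 in the untreated kidney. It was 6.29, 6.21 and 6.41 in Clip kidneys and 6.80, 6.63 and 6.80 in ClipR-14 kidneys. The obstructed kidneys lay below both other arms without overlap. The fall was 0.58 ± 0.10 (SE; 1.49-fold; limma adjusted p = 0.00198), with -0.54, -0.58 and -0.61 on the 3 slides, and a second probe gave -0.66.

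Each of the 9 fits without 1 array kept the Pgk1 fall, with changes of -0.63 to -0.51. Quantile normalization, which forces all arrays to 1 distribution, gave -0.21 (adjusted p = 0.160) and ended the call. From Clip to ClipR-14, Pgk1 rose by 0.44 ± 0.10 (SE; limma adjusted p = 0.00943), a call that quantile normalization ended as well. Its difference from control after release was -0.13, with a 95% interval of -0.37 to 0.10.

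Pyruvate kinase M (Pkm) makes the last step in most adult and embryonic tissues other than liver. Its level was 2.96, 2.87 and 2.68 in controls, 3.21, 3.17 and 2.70 in Clip kidneys and 3.38, 3.17 and 2.86 in ClipR-14 kidneys. The arms overlapped, and in each of them the array on slide 3 was lowest. The change was 0.19 ± 0.18 under the clip (SE; limma adjusted p = 0.406) and 0.30 ± 0.18 after release (SE; adjusted p = 0.362), with a 95% interval of -0.22 to 0.60 for the first. Pkm has 1 probe here, and which of the M1 and M2 splice forms it reads is not known here. Pklr, the liver and red cell gene, rose under the clip by 1.21 ± 0.21 (SE; adjusted p = 0.00147) from a level of -2.35 to -2.10 in controls to -1.37 to -0.66.

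Lactate dehydrogenase A favours lactate, and lactate dehydrogenase B favours pyruvate. The level of Ldha was 6.99, 6.73 and 6.83 in controls, 6.70, 6.44 and 6.56 in Clip kidneys and 6.98, 6.70 and 6.74 in ClipR-14 kidneys. Each Clip kidney lay below each kidney of the other arms, by a small margin. The change of -0.28 ± 0.12 (SE) did not pass (limma adjusted p = 0.0818), but it was nearly equal on the 3 slides (-0.29, -0.29 and -0.27) and passed with the slide as a block (adjusted p = 0.00834). A second probe gave -0.30 (adjusted p = 0.0331). Ldhb overlapped across all arms, 8.38 to 8.57 in controls, 8.23 to 8.48 in Clip and 8.34 to 8.48 in ClipR-14. Its change under the clip was -0.11, with a 95% interval of -0.34 to 0.13.

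**Figure D2:**
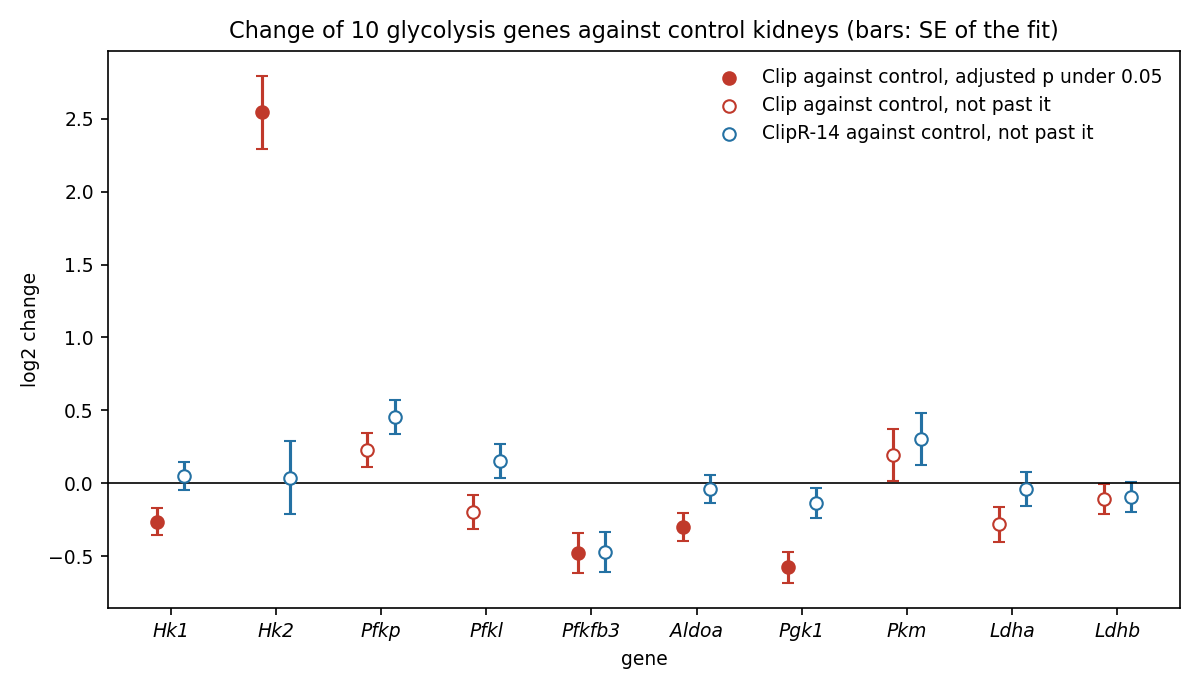
Change of each of the 10 genes against control (vertical axis: log2 change; red: Clip; blue: ClipR-14; filled: limma adjusted p under 0.05; bars: SE of the fit). Hk2 stands at 2.54 under the clip and at 0.04 after release; the 4 other filled points lie between -0.58 and -0.26.

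To ask whether 1 isozyme gained on another, the log2 ratio of 2 probes was taken within each array for 6 pairs. Such a ratio shows that the 2 genes changed unequally, and not which of them the kidney holds more of. With 3 arrays against 3, an exact two-sided permutation test cannot give p under 0.1, and over the 18 tests run the smallest adjusted p was 0.138. No pair could pass 0.05 with this test, and the ratios are described by whether the arms overlap.

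The ratio of Hk2 to Hk1 was 2.81 higher in Clip than in control (7.00-fold; exact permutation p = 0.1, adjusted 0.138), and -0.01 from control after release (p = 1). The log2 ratio was -7.20, -6.95 and -6.41 in controls, -4.24, -3.91 and -3.99 in Clip and -7.30, -6.65 and -6.64 in ClipR-14. The 3 Clip kidneys were apart from the other 6.

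The ratio of Pfkp to Pfkm was 1.35 higher in Clip and 0.51 higher in ClipR-14 than in control, both without overlap (exact permutation p = 0.1 each). The ratio of Pfkp to Pfkl was higher by 0.42 and 0.30, also without overlap. When the probes of a gene were averaged, these Pfkl ratios became -0.02 and 0.10, as the dim Pfkp probe went the other way under the clip. The ratio to Pfkm rests on the same bright Pfkp probe. Under the clip the dim Pfkp probe fell by 0.67 and Pfkm by 1.12, so the size of that ratio depends on the probe as well. The same holds after release, where the bright Pfkp probe stood at 0.45, the dim one at 0.05 and Pfkm at -0.06.

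The ratio of Pkm to Pklr was 1.02 lower in Clip than in control and 0.57 higher in ClipR-14 (exact permutation p = 0.1 each). Its log2 values were 5.07, 5.01 and 5.03 in controls, 4.13, 3.83 and 4.07 in Clip and 5.56, 5.60 and 5.64 in ClipR-14, so that the 3 arms formed 3 separate bands. Released kidneys thus lay on the far side of control from obstructed ones. Neither gene passed the test on its own after release (Pkm 0.30, Pklr -0.27).

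The ratio of Ldha to Ldhb did not separate Clip from control (-0.17; exact permutation p = 0.3) or ClipR-14 from control (0.05; p = 0.8). Pfkfb3 over Pfkfb2 overlapped between Clip and control (-0.30; exact permutation p = 0.4) and lay apart after release (-0.69). In all, the arms were apart for 4 of 6 pairs in Clip against control and for 4 of 6 in ClipR-14 against control, and for 5 of 6 in ClipR-14 against Clip, where Ldha over Ldhb was apart too (0.23 higher). Single genes had arms apart in 58.6%, 27.2% and 54.8% of cases in these comparisons. The same share over all pairs of genes was not computed.

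**Figure D3:**
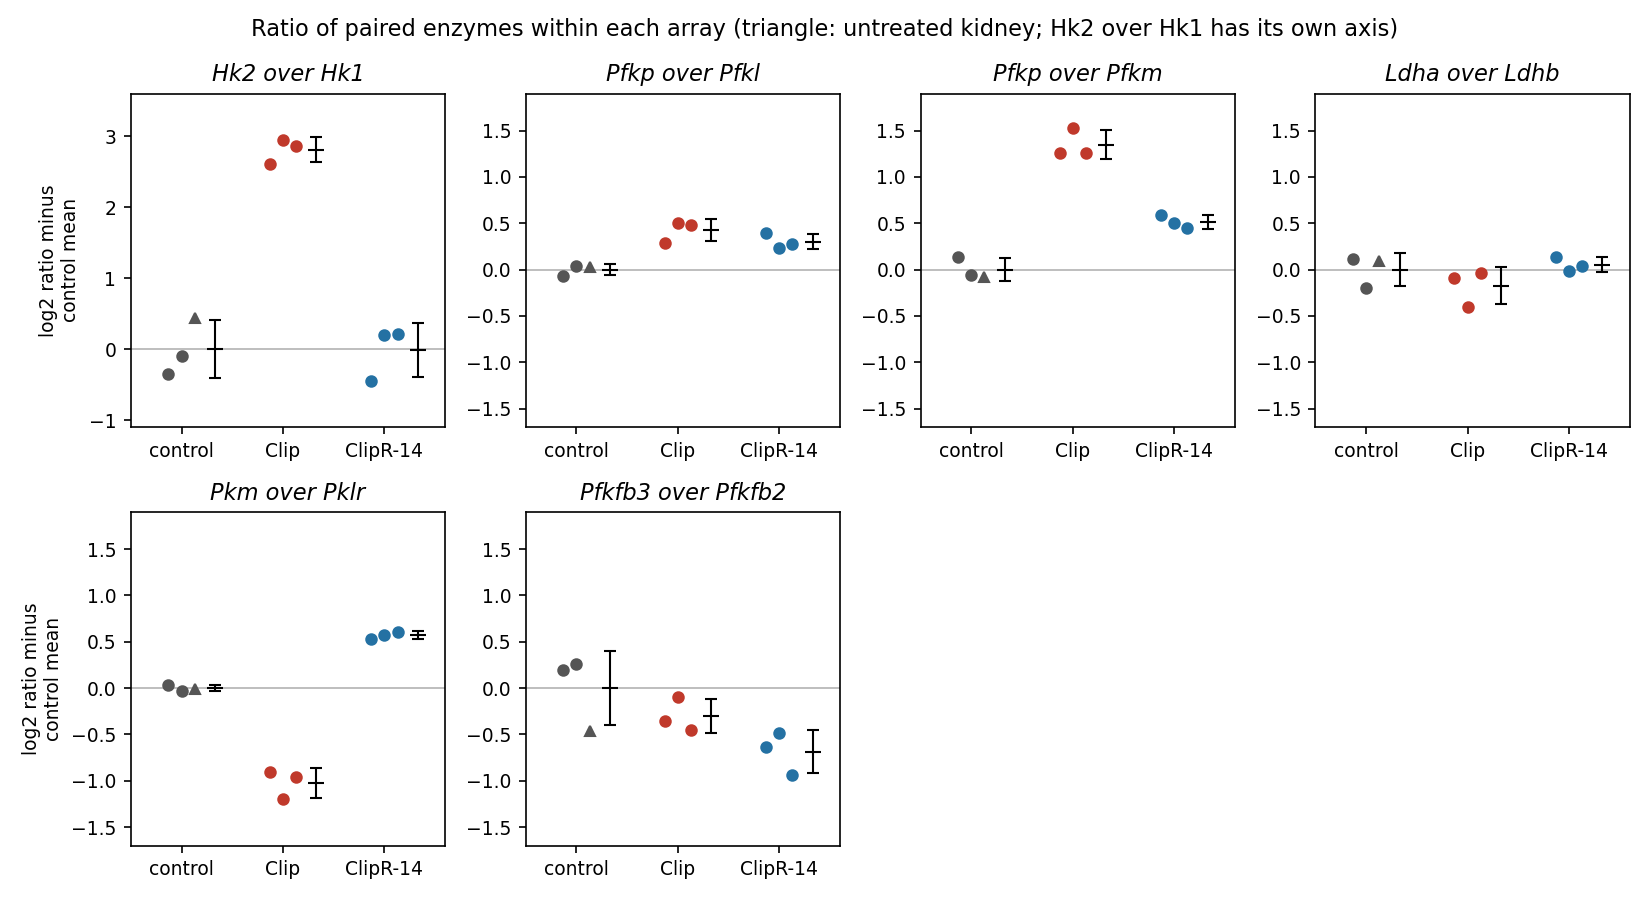
Within-array log2 ratio of paired enzymes on each of the 9 arrays, minus the mean of the 3 controls (dots: single kidneys; triangle: the untreated kidney; bars: mean and SD). Hk2 over Hk1 has its own axis and is 2.81 higher in Clip; Pkm over Pklr lies 1.02 below control in Clip and 0.57 above it in ClipR-14.

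Of 22 further genes of glycolysis 19 could be tested, and most fell under the clip: 10 fell, 5 rose and 4 did not pass, with a median of -0.39. Over all genes tested, 27.5% fell and 21.4% rose. The rises were the isozymes Eno2, Pklr, Pfkfb1, Hkdc1 and Hk3, the last of which could be tested through the Clip arrays alone. Eno2, the enolase of neurons, rose by 1.96 ± 0.20 (SE; limma adjusted p = 8.7e-05). Pgam2, the muscle phosphoglycerate mutase, fell by 2.66 ± 0.15 (SE; adjusted p = 6.16e-06), the largest fall among these genes. Its level was 3.14, 3.62 and 3.43 in controls and 0.92, 0.56 and 0.72 in Clip, and it was back at 3.35, 3.18 and 3.06 in ClipR-14.

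The 6 smallest falls were those of Gpi1 by 0.50, Gapdh by 0.45, Tpi1 by 0.43, Eno1 by 0.43, Bpgm by 0.42 and Pgam1 by 0.39. Most of these falls depended on the scaling. With quantile normalization Gpi1, Gapdh, Tpi1, Bpgm and Pgam1 no longer passed and Pgam1 stood at 0.00, which left 5 of 19 as lower and 5 as higher. With normexp Bpgm lost its call and the counts were 9 lower and 5 higher. Without 1 array, Gapdh lost its call in 3 of the 9 fits (Clip replicate 2, Clip replicate 3 or sham replicate 1 left out), Tpi1 in 3 (Clip replicate 2, sham replicate 1 or sham replicate 2) and Bpgm in 4 (Clip replicate 1, Clip replicate 2, sham replicate 1 or the untreated kidney).

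**Figure D4:**
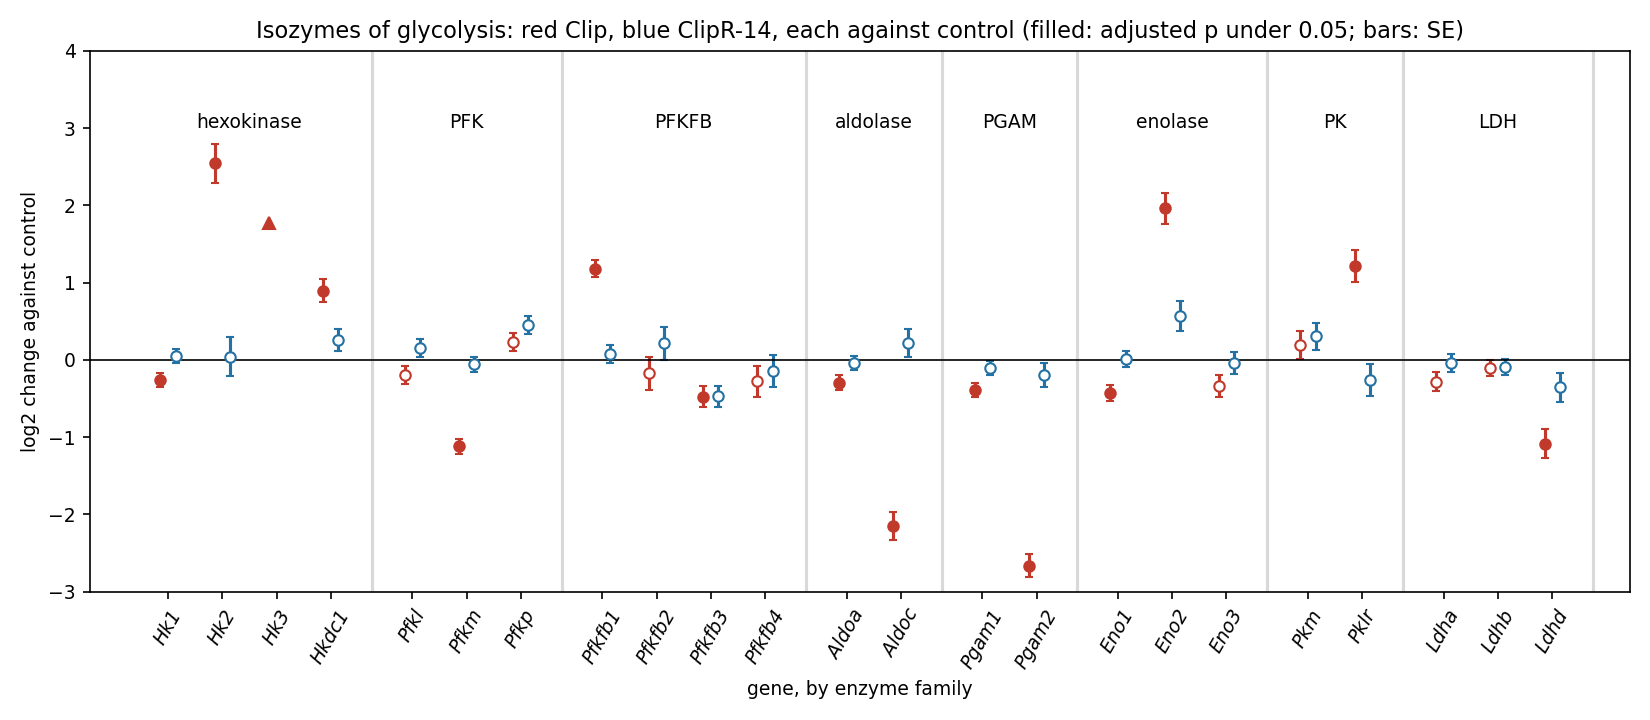
Log2 change against control of isozymes of 8 enzyme families (red: Clip; blue: ClipR-14; filled: limma adjusted p under 0.05; bars: SE of the fit; triangle: lower bound for Hk3, which was not well above background in control or ClipR-14; grey lines part the families). Hk2 and Eno2 rise by 2.54 and 1.96 under the clip and Pgam2 and Aldoc fall by 2.15 to 2.66, while the blue points have no call.

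The routes into and out of the pathway were then read from lists of related genes. Each list count is to be read against all genes tested, of which 27.5% fell and 21.4% rose under the clip. Of the 12 tested genes for pyruvate entry into mitochondria, 9 fell and 0 rose (limma; median -1.09). They included pyruvate carboxylase (Pcx, by 1.86), the dehydrogenase subunits Dlat (by 1.51) and Pdhx (by 1.50), the pyruvate carriers Mpc1 (by 1.29) and Mpc2 (by 1.15) and the inhibitory kinase Pdk1 (by 1.34). Since Pdk1 restrains the dehydrogenase, the members of this list that fell do not all act in 1 direction. The remaining 3, Dld (-0.73), Pdk4 (-0.27) and Pdp1 (0.09), did not pass. Dld rests on 1 array: its level was 2.72 and 2.84 in the sham kidneys but 0.87 in the untreated kidney, and without the latter it fell by 1.36 (limma adjusted p = 0.00019). A second Dld probe, on which the untreated kidney did not stand apart, fell by 1.54 with all 9 arrays (adjusted p = 0.000587).

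Of the 14 tested glucose and lactate transporters and partners, 10 fell and 1 rose (median -1.04). The rise was Slc16a3, which exports lactate, by 1.25 ± 0.30 (SE; limma adjusted p = 0.00782), with levels of 1.04, 0.39 and 1.51 in controls and 2.51, 2.45 and 1.74 in Clip. The arms did not overlap, with Clip replicate 3 nearest to the controls. The falls were led by the lactate and pyruvate carrier Slc16a7 (by 3.05), the sodium-coupled lactate carrier Slc5a8 (by 2.77), the fructose carrier Slc2a5 (by 2.74) and the insulin-responsive glucose carrier Slc2a4 (by 2.69). The proximal tubule glucose carrier Slc5a2 fell by 1.88. Slc2a1, the widespread glucose carrier, stood at 0.06 ± 0.20 (SE; adjusted p = 0.812). Slc2a9 fell by 0.94 on its brightest probe, but that probe stood at 0.32 with normexp, so its direction depends on the background correction. Dimmer Slc2a9 probes that passed the filter fell by 1.28 (limma adjusted p = 0.00182) and by 1.32 (adjusted p = 0.000357). They were not read with normexp.

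Of the 5 tested genes of gluconeogenesis 3 fell and 1 rose, where 48.9% of all genes passed in either direction. G6pc, the last step of glucose release, fell by 3.68 ± 0.24 (SE; limma adjusted p = 1.13e-05), Fbp1 by 1.89 and the transporter Slc37a4 by 1.77. Pck2, the mitochondrial form of its enzyme, rose by 1.36. In the pentose phosphate branch 3 of 7 genes rose and 0 fell (limma), namely the NADPH-making enzymes G6pdx (by 0.84), H6pd (by 0.83) and Pgd (by 0.81). The later, reversible steps of that branch, Tkt (0.04), Taldo1 (-0.21) and Rpe (-0.55), did not pass, nor did the lactonase Pgls (-0.34). Rpe passed as lower without Clip replicate 3 (-0.86, adjusted p = 0.00379) and Pgls without Clip replicate 1 (-0.44, adjusted p = 0.0297). A second, dimmer Rpe probe fell by 0.41 with all 9 arrays (limma adjusted p = 0.0210). With normexp H6pd did not keep its call (0.52, adjusted p = 0.0545). With the slide as a block, 2 genes of the branch passed as lower.

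Of the 9 tested regulators 4 fell and 1 rose, where 48.9% of all genes passed in either direction. Myc, a transcription factor known to drive glycolytic genes, rose by 1.81 ± 0.31 (SE; limma adjusted p = 0.00149), from -1.17 to -0.33 in controls to 0.64 to 1.54 in Clip. Esrra, a regulator of mitochondrial genes, fell by 1.39, the tubule factor Hnf4a by 0.92, the glucose-responsive factor Mlxipl by 0.57 and Epas1 (HIF-2 alpha) by 0.50. Under quantile normalization Mlxipl and Epas1 no longer passed. Ppargc1a, also on this list, stood at -0.87 and did not pass. It passed as lower without Clip replicate 3 (-1.15, limma adjusted p = 0.0275) and without ClipR-14 replicate 3 (adjusted p = 0.0468). A second Ppargc1a probe fell by 1.11 with all 9 arrays (adjusted p = 5.03e-05). Hif1a stood at 0.27 ± 0.14 (SE; adjusted p = 0.141) and its partner Arnt at 0.01, but without the untreated kidney Hif1a rose by 0.41 (limma adjusted p = 0.0159).

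Of 12 known HIF targets outside glycolysis, 8 fell and 2 rose, where 27.5% of all genes fell and 21.4% rose. Car9, a carbonic anhydrase, fell by 2.85, Vegfa, the endothelial growth factor, by 1.42, Adm, a vasodilator peptide, by 1.28 and Bnip3, a mitophagy receptor, by 1.03. Ndrg1 rose by 0.42 and the collagen hydroxylase P4ha2 by 0.36, and with normexp neither kept its call. Without 1 array, Ndrg1 lost its call in 5 of the 9 fits and P4ha2 in 6. Of 5 splicing factors known to choose between the M1 and M2 forms of Pkm, Hnrnpa1 rose by 1.05, Hnrnpa2b1 fell by 0.48 (-0.26 and no call under quantile normalization) and Ptbp1 (0.18), Srsf3 (-0.12) and Rbm4 (-0.22) did not pass.

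**Figure D5:**
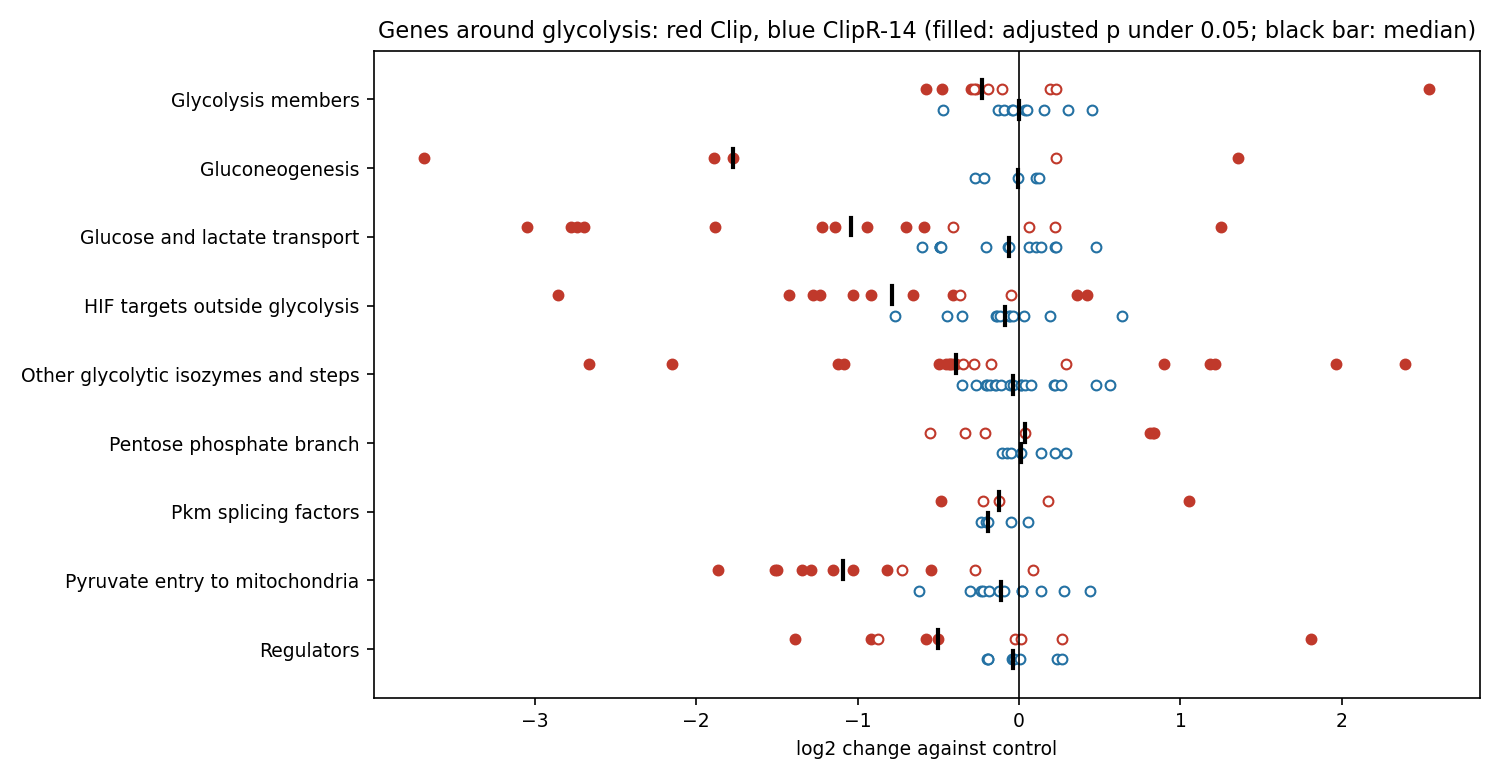
Log2 change against control of each tested gene of the 10 members and of 8 lists of related genes (dots: genes; red: Clip; blue: ClipR-14; filled: limma adjusted p under 0.05; black bars: median of the list). Under the clip the medians lie between -1.77 for gluconeogenesis and 0.04 for the pentose phosphate branch, and no blue point is filled.

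Members and lists together held 93 tested genes, of which 15 rose and 49 fell under the clip, where 21.4% of all genes rose and 27.5% fell. Of these 64 calls, 56 were kept in each of the 9 fits without 1 array. The list genes are not independent of the cell markers: Slc5a2 is also a marker of the proximal tubule, whose summed marker level was lower in each Clip kidney than in any control. Myc and the NADPH-making enzymes stand beside the higher level of proliferation markers, and Hk3 beside that of macrophage markers. The part of these shifts was not tested.

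After 12 days without the clip, 0 of the 10 members passed the test against control with limma, where 1.83% of all genes did, 1.46% as higher and 0.372% as lower. Without adjustment, 2 members had p under 0.05, Pfkp and Pfkfb3, a share near the 21.5% of all genes that did. These were also the 2 members whose arms did not overlap, a share to be read against 27.2% of all genes. Pfkp was higher on each of the 3 slides (0.60, 0.44 and 0.32) and Pfkfb3 lower on each. The median difference of the members was 0.00.

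Over members and lists, each gene read by its brightest probe, 0 of 93 genes passed against control after release. Of these genes, 13 had an unadjusted p under 0.05 with limma, a smaller share than the 21.5% of all genes. The largest differences were Adm at -0.77 ± 0.17 (SE; adjusted p = 0.0602), Ndrg1 at 0.64 ± 0.14 (SE; adjusted p = 0.0578) and Pdhx at -0.62 ± 0.14 (SE; adjusted p = 0.0659). Adm and Ndrg1 passed with the slide as a block. A second, dimmer Pdhx probe stood at 0.41 ± 0.29 (SE), so the direction for Pdhx depends on the probe. Adm was 1.97, 1.67 and 1.33 in controls and 0.84, 0.96 and 0.86 in ClipR-14, without overlap. Ndrg1 was 5.78, 5.97 and 5.80 in controls and 6.47, 6.77 and 6.23 in ClipR-14, also without overlap. For Hnf4a the reading depends on the probe. Its brightest probe stood at 0.01, but a dimmer one was lower after release (-1.06, limma adjusted p = 0.0283). Another stood at -0.52 and did not pass (adjusted p = 0.261).

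From obstructed to released kidneys, 3 members rose (Hk1, Pfkl and Pgk1), 1 fell (Hk2) and 6 did not pass, where 41% of all genes passed, 23.5% as higher and 17.4% as lower. The 2 arms did not overlap for 6 of the 10 members, against 54.8% of all genes. Hk2 fell by 2.50 ± 0.25 (SE; limma adjusted p = 0.000121), and on the 3 slides it was -2.95, -2.33 and -2.24. Hk1 rose by 0.31 ± 0.09 (SE; adjusted p = 0.0269), a call that 5 of the 9 fits without 1 array kept: those without Clip replicate 2 or 3 and without ClipR-14 replicate 2 or 3 did not. None of the 3 rises kept its call under quantile normalization, where Hk1 stood at 0.11 (adjusted p = 0.414), Pfkl at 0.24 (adjusted p = 0.134) and Pgk1 at 0.20 (adjusted p = 0.184). Aldoa and Ldha passed with the slide as a block (adjusted p = 0.0185 and 0.0173). Comparisons with the Clip arm share its 3 kidneys, so a return from an extreme there is not independent of the change under the clip. Over members and lists, 46 of the 93 genes rose and 15 fell, led by G6pc (3.41 higher) and by Slc16a7 (3.27 higher).

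Of all genes tested, those whose levels followed Hk2 most closely over the 9 arrays were Itpr3, a calcium release channel (Pearson r = 0.995), Lbp, a binding protein for bacterial lipopolysaccharide (0.990), and Vcl, an adhesion protein (0.987). Those closest to Pgk1 were Tpd52l1 (0.998), Mindy3 (0.997) and Gng12 (0.994). These are descriptions over 9 arrays in which the split between Clip and the other arrays sets most of the spread. Itpr3 rose by 0.79 and Lbp by 1.75 under the clip, while Tpd52l1 fell by 1.09.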

How the data were processed

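Each of the 9 kidneys was hybridized to 1 single-colour Agilent array (design 014868, named for mm9; Feature Extraction 10.7.3.1, protocol GE1_107_Sep09, per the file headers). The deposited files hold an intensity per spot, background-subtracted and detrended within the array and not scaled between arrays, per the file headers. Other deposited columns flag whether a spot was above background, saturated or an outlier. Here outlier spots were dropped, repeated spots averaged, and log2 of the intensity over the array's 75th percentile taken. RefSeq accessions named 26690 of 41174 probes. No spot was saturated.

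limma 3.58.1 (R 4.3.3) was fitted with 3 arms over the 9 arrays, with Benjamini-Hochberg adjustment within a comparison at 0.05. On simulated data for Clip against control (17741 genes) it recovered 72 of 100 genes changed by 1 (log2) and 92 of 100 changed by 2, with 8 false calls. Isozyme ratios were tested by exact permutation in Python 3.11.15. Values of single probes come from a fit over all probes. For a gene dark in a whole arm, "at least" sets the brighter arm against the gene's own signal there or the faintest detected probe, whichever is higher, which is not a strict bound.

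The arms were spread evenly over 3 slides, and slide 3, which holds the untreated kidney, was scanned on another date. Deviations from the arm means correlated at 0.161 to 0.281 in the 9 pairs on a shared slide and at -0.239 to 0.0029 in the 18 pairs on different slides. P-values measure the spread between samples that the labels give as separate.

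Alternatives were normexp (offset 50, on median spot and background signals, as the files lack mean signals), quantile normalization, 2 other filters, the average of a gene's probes or each probe alone, slide or replicate number as a block, only the arrays compared, sham alone as control, and leaving out each array. Each member was to be named, and each list gene could be, except some genes of the lists, which are not reported here. Members and lists were chosen with earlier results of these data known. A deposited table of log2 values was not used: of its 8142 filled entries, 0 lay within 0.02 of the values of the probe they name and 8136 lay that close to another probe.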

Additional observations from a re-analysis of the deposited data

How the results depend on the processing

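Of 597 values of single members under alternatives, 498 kept their direction and their side of the threshold, 49 lost the call, 17 gained it and 33 changed sign. Members called in Clip against control numbered 2 with quantile normalization, and 3 each with no filter on dim probes, only the arrays compared and sham alone; without 1 array they numbered 2 to 4. In ClipR-14 against control 1 passed with the slide as a block. In ClipR-14 against Clip 2 passed with quantile normalization, 7 when a gene's probes were averaged, and 2 to 4 without 1 array. Over members and lists in ClipR-14 against control, 2 passed (Adm and Ndrg1) among probes above background on all 9 arrays, 3 with the slide as a block (with Pfkfb3), 1 (Adm) with sham alone, and 0 to 1 without 1 array. Over all genes, the slide block raised that comparison's calls from 1.83% to 6.56%. The fit of each probe alone gives values of single members and no counts. Isozyme ratios were read again only with normexp, with a gene's probes averaged and without 1 array. They were not read with quantile normalization.

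Quantile normalization turned Hk1 (0.057) and Ldha (0.10) in Clip against control, Hk2 (-0.029), Aldoa (0.066), Ldha (0.090) and Ldhb (0.011) in ClipR-14 against control, and Pfkfb3 (-0.10), Pkm (-0.0073) and Ldha (-0.013) in ClipR-14 against Clip. Normexp turned Pkm in Clip against control (-0.0031), Hk2 (-0.031) and Aldoa (0.0027) in ClipR-14 against control, and Pfkfb3 over Pfkfb2 in ClipR-14 against Clip (0.38). Normexp moved the median change of all genes under the clip from -0.09 to 0.10. Averaging a gene's probes turned Pfkp in Clip against control (-0.22), Ldha in ClipR-14 against control (0.056), and Pfkp over Pfkl in Clip against control (-0.024) and ClipR-14 against Clip (0.12). Probes alone turned Pfkp (A_52_P572045, -0.67, Clip against control), and Pfkfb3 (A_52_P362917, 0.025) and Ldha (A_51_P364140, 0.15) in ClipR-14 against control. Beyond the construction of each alternative, the cause was not tested.

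Without 1 array, changes that crossed 0 ran, in ClipR-14 against control, from -0.10 to 0.30 for Hk2, -0.090 to 0.0056 for Aldoa, -0.13 to 0.031 for Ldha, -0.18 to 0.21 for Hk2 over Hk1 and -0.047 to 0.11 for Ldha over Ldhb. In ClipR-14 against Clip they ran from -0.11 to 0.12 for Pfkfb3, -0.053 to 0.25 for Pkm and -0.059 to 0.065 for Ldhb. None of the 6 single-gene changes among these was called with all 9 arrays. Hk2 kept its call under each alternative in both comparisons with Clip.

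The replicate numbers do not pair the kidneys, as the untreated kidney has number 1 but lies on slide 3: deviations of arrays with the same number correlated at -0.209 to 0.269. With the replicate number as a block, 5 members passed in Clip against control, Hk1 no longer among them (-0.25, adjusted p = 0.0930) and Pkm added (0.35, adjusted p = 0.0474). The replicate block left 0 members called in ClipR-14 against control, where Hk2 (-0.050) and Ldha (0.019) changed sign, and 5 in ClipR-14 against Clip, with Aldoa added.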
